A study of Arabidopsis thaliana with 4 samples.

Results

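The genes described here are the plastid-encoded genes for photosystem I (psa), photosystem II (psb), the cytochrome b6f complex (pet), the ATP synthase (atp), the NAD(P)H dehydrogenase-like (NDH) complex (ndh) and the large subunit of Rubisco (rbcL). They were taken by gene symbol from the probe sets that the array's annotation assigns to a single gene on the plastid genome, and the brightest probe set was to stand for each gene. This gave 43 genes, each with 1 probe set, of the 69 plastid genes that could be named and of 22746 probe sets in all. They comprise 5 genes of photosystem I, 15 of photosystem II, 6 of cytochrome b6f, 6 of the ATP synthase, 10 of the NDH complex, and rbcL. The probe set of ndhB matches both copies of that gene on the plastid genome and was therefore not counted.

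Transcript levels were measured on Affymetrix ATH1 arrays, which read each transcript with a set of short probes, in Arabidopsis thaliana seedlings of the Columbia ecotype raised in darkness. The phyA phyB double mutant, with the alleles phyA-211 and phyB-9, lacks phytochromes A and B, the main receptors of far-red and red light. It had 2 arrays and was set against 2 arrays of wild-type Columbia. All seeds were chilled for 5 days at 6 °C on 0.8% agar, received white light for 1 h at 22 °C, and spent 3 days in darkness before harvest. The design asks what the lack of both receptors does to the transcriptome of seedlings that had seen no other light. The annotation used here gives no probe set the symbol PHYA or PHYB, so the genotype labels were not checked on these transcripts.

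The plastid genome encodes the reaction-centre proteins of both photosystems, most of the cytochrome b6f complex and parts of the ATP synthase, NDH complex and Rubisco, while the nucleus encodes the remaining subunits. In darkness, plastids of seedling leaves become etioplasts, which hold plastid transcripts but no working photosystems, because the chlorophyll-binding proteins are not stable without chlorophyll. Most of these genes lie in polycistronic transcription units and are read by the plastid's own bacterial-type RNA polymerase. A probe set therefore reports every transcript, precursor or mature, that carries its sequence.

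All 43 genes passed the filter that kept the brightest 60% of probe sets, which left 13648 for testing. Summed intensity per array ranged from 76027250 to 77974921. The wild-type arrays stood apart on these genes. Wild-type array 2 lay above wild-type array 1 for 42 of the 43, by a median of 0.73 on the log2 scale, while 49.9% of all tested probe sets lay above. The mutant arrays differed less on these genes. Mutant array 2 was below mutant array 1 for 32 of 43, by a median of 0.27 (47.3% of all tested probe sets were lower). Each comparison is therefore given against the wild-type mean and against each wild-type array. Over all tested probe sets the mutant arrays were less alike (Pearson correlation 0.917) than the wild-type arrays (0.950). Mutant array 2 was closer to wild-type array 1 (0.947) than to mutant array 1. Log2 values are of intensity plus a pseudocount of 70.1, which understates differences of dim probe sets. The labels name no separate cultures, so the p-values cover only the scatter of these 4 arrays, which may be technical. In whole-seedling RNA, fewer plastid-rich cells and less plastid RNA per cell cannot be told apart.

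In the phyA phyB mutant, psbA, for the D1 reaction-centre protein of photosystem II, fell, and it was the only gene of the 43 to pass an adjusted p of 0.05 (limma, Benjamini-Hochberg). The share of tested probe sets that fell at this threshold was 0.00733%, which is psbA alone, and 0.0879% rose, with 0 of the 43 among them. At an unadjusted p under 0.05, 11 of the 43 were lower and 0 higher, beside 3.22% and 4.02% of tested probe sets.

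Next to psbA, the means of ndhD, psaJ and psaC were more than 2-fold lower in the mutant, without passing the threshold. A mean at least 2-fold below that of the wild type was seen for these 4 of 43 genes and for 1.16% of tested probe sets. The same 4 genes were at least 2-fold below each of the wild-type arrays, as were 0.623% of tested probe sets. The next lowest differences were -0.99 for psbD and -0.86 for ndhE, so the 2-fold mark is a cutoff and not a split between kinds of genes.

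**Figure D1:**
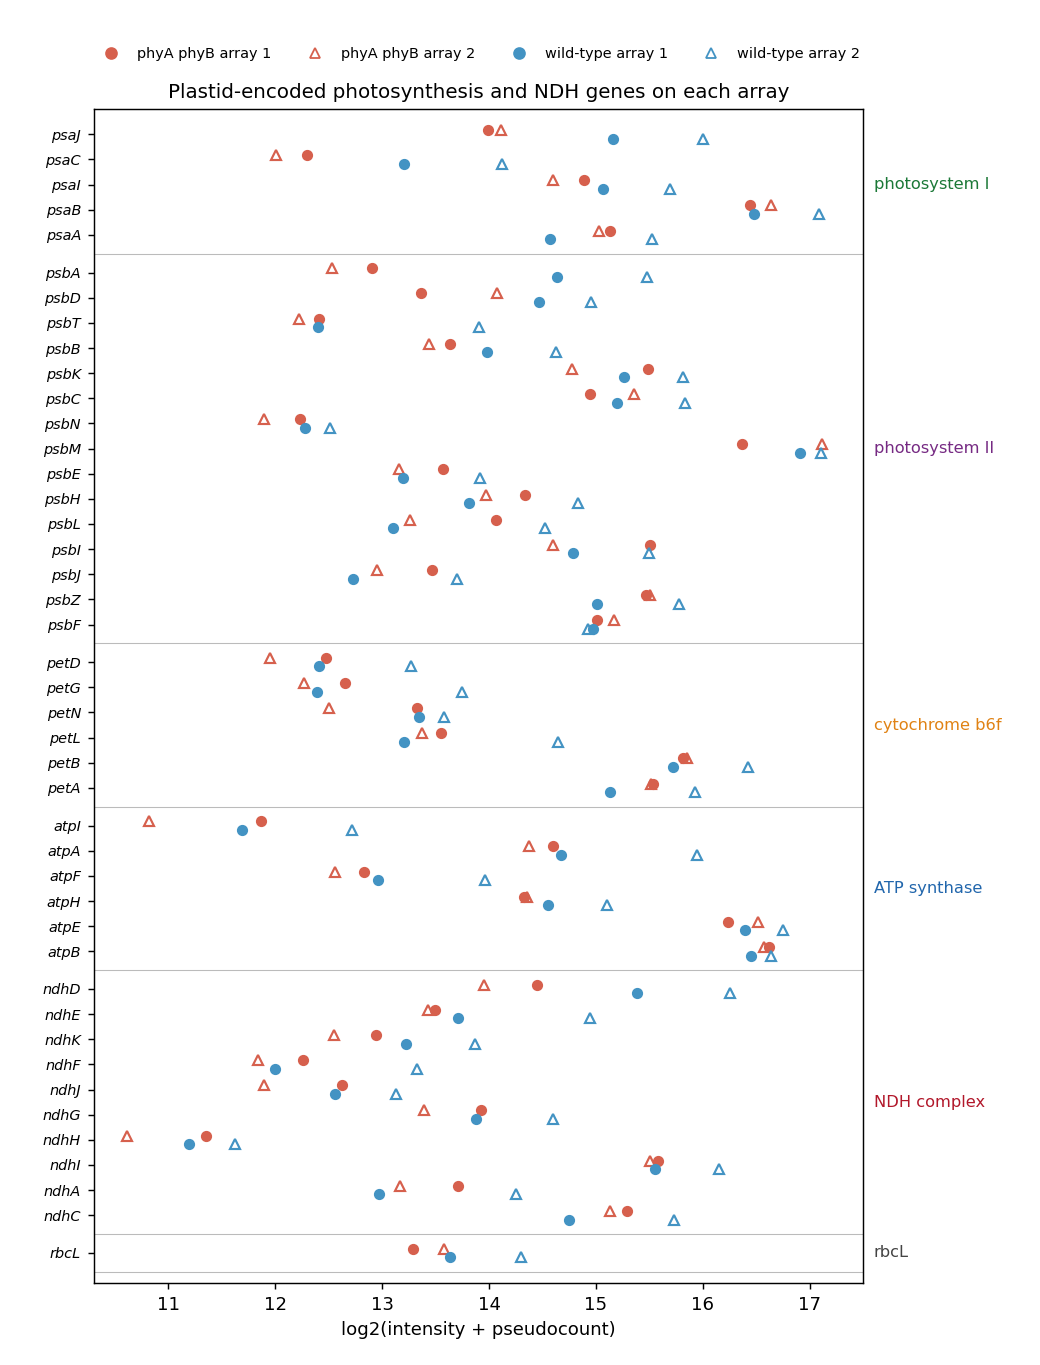
The 43 genes (rows, by complex, lowest difference first) on the 4 arrays, with log2(intensity + 70.1) on the x axis. Red marks stand for phyA phyB arrays 1 (filled circles) and 2 (open triangles), blue marks for wild-type arrays 1 (filled circles) and 2 (open triangles). Wild-type array 2 lay right of wild-type array 1 for 42 genes, and psbA, ndhD, psaJ and psaC show the widest gaps between red and blue marks.

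Photosystem I passes electrons from plastocyanin to ferredoxin, and 4 of its 5 plastid genes had lower means in the mutant. The median difference was -0.64, with -0.32 against wild-type array 1 and -0.95 against wild-type array 2. The gene psaJ, for a small membrane subunit near the plastocyanin docking side, had intensities of 16149.5 and 17601 in the mutant, against 36613 and 65365 in the wild type. Both mutant arrays were close to each other and under both wild-type arrays. The log2 difference of psaJ was -1.53 (SE 0.28; adjusted p = 0.125, limma), with -1.12 against wild-type array 1 and -1.95 against wild-type array 2.

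The gene psaC, for the subunit that carries the terminal iron-sulfur clusters, had intensities of 4974 and 4049 in the mutant, against 9383 and 17706 in the wild type. Here too the groups did not overlap. The difference of psaC was -1.51 (SE 0.31; adjusted p = 0.186, limma). The genes of the reaction-centre core did not share this. The core gene psaB had intensities of 88941.5 and 101758 in the mutant, against 90962 and 139451 in the wild type, and psaA had 35865 and 33385 in the mutant, against 24211 and 47099 in the wild type. The mutant arrays lay on either side of wild-type array 1 for psaB and above it for psaA, and below wild-type array 2 for both, with differences of -0.24 for psaB and 0.035 for psaA. The small subunit gene psaI differed by -0.64 (SE 0.25).

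Photosystem II, which oxidises water, had the widest spread among its members, which rested on psbA at -2.33. Its other genes ran from -0.99 for psbD to 0.14 for psbF. Photosystem I ran from -1.53 to 0.035 and the NDH complex from -1.62 to -0.029. The 15 genes of photosystem II had a median difference of -0.27, with -0.049 against wild-type array 1 and -0.68 against wild-type array 2. With quantile or cyclic loess normalization the median was -0.16 or -0.13. Intensities of psbA were 7604 and 5856 in the mutant, against 25362.5 and 45420 in the wild type. The mutant values were close together and far below both wild-type values, which themselves differed. On the log2 scale psbA averaged 12.72 ± 0.26 in the mutant and 15.05 ± 0.59 in the wild type (SD, n = 2 each), a difference of -2.33 (SE 0.29; adjusted p = 0.0277, limma) or 5.04-fold lower.

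Against wild-type array 2 alone the difference of psbA was -2.75 (adjusted p = 0.0266, limma). Against wild-type array 1 alone it was -1.92 (adjusted p = 0.21, limma), so the direction held and the call did not. Its call also ended in limma without the filter on dim probe sets (adjusted p = 0.0528) and without the intensity trend (0.382). With arrays centred on the other plastid genes psbA did not pass either. That centring puts the wild-type difference of plastid genes into all nuclear probe sets, so this fit cannot judge the call.

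The gene psbD, for D2, the partner of D1 in the reaction centre, had intensities of 10498 and 17139 in the mutant, against 22613.5 and 31578 in the wild type. Its groups did not overlap, but mutant array 2 was nearer to wild-type array 1 than to mutant array 1. The difference of psbD was -0.99 (SE 0.28; adjusted p = 0.447, limma). Against the wild-type mean, mutant array 1 stood at -1.34 and mutant array 2 at -0.64. Of the genes for the inner antenna proteins, psbB, for CP47, differed by -0.77 (SE 0.26) and psbC, for CP43, by -0.37 (SE 0.26). The groups were separate for psbB, whereas the mutant values of psbC straddled wild-type array 1.

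The genes psbE and psbF, for the subunits of cytochrome b559, differed by -0.19 (SE 0.28) and 0.14 (SE 0.20). The intensities of psbF were 32887 and 36857 in the mutant, against 32013 and 31070 in the wild type. This was the only gene of the 43 with both mutant arrays above both wild-type arrays, and the only one for which wild-type array 2 was not the higher of the wild-type arrays. The groups were separated in this direction for 20.0% of all tested probe sets. The gene psbM, for a small subunit at the dimer interface, had intensities of 84192 and 142058 in the mutant, against 122749 and 140805 in the wild type. Its mutant values spanned the wild-type range, with a difference of -0.27.

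The remaining genes for small subunits of photosystem II ranged from -0.84 for psbT to 0.095 for psbZ, with psbK, psbH, psbL, psbI and psbJ between them. For psbH (-0.17), psbL (-0.16), psbJ (-0.0018) and psbZ both mutant arrays lay above wild-type array 1 and below wild-type array 2. For psbK (-0.41) and psbI (-0.092) they lay on either side of wild-type array 1, with mutant array 1 the higher. Of the 43 genes, psbT had the widest gap between the wild-type arrays, 1.50, and its difference was -0.088 against wild-type array 1 and -1.59 against wild-type array 2. The gene psbN, which in tobacco encodes an assembly factor of photosystem II, differed by -0.33 (SE 0.24).

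The cytochrome b6f complex links both photosystems, and all 6 of its genes had lower means in the mutant. Their median difference was -0.50, with 0.089 against wild-type array 1 and -0.86 against wild-type array 2, so its sign depended on the wild-type array. The gene petD, for subunit IV, had intensities of 5615.5 and 3878 in the mutant, against 5359 and 9800 in the wild type, and mutant array 1 exceeded wild-type array 1. The gene petB, for cytochrome b6, had intensities of 57631 and 58990 in the mutant, against 54017 and 87742 in the wild type. Mutant values of petB were slightly above wild-type array 1 and well below wild-type array 2.

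The gene petA, for cytochrome f, had intensities of 47291 and 46702 in the mutant, against 35771 and 62364 in the wild type. Its mutant values were nearly equal and lay between the wild-type values, with a difference of -0.0073. The differences were -0.63 for petD and -0.24 for petB. The genes for the small subunits differed by -0.61 (petG), -0.55 (petN) and -0.46 (petL). Of the 6 genes, petN alone had groups that did not overlap, with the mutant lower, as had 18.3% of all tested probe sets. In limma 0 of the 6 passed (0 at an unadjusted p under 0.05).

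The ATP synthase couples the proton gradient to ATP synthesis, and its 6 plastid genes had a median difference of -0.62, with -0.20 against wild-type array 1 and -1.01 against wild-type array 2. The gene atpI, for a subunit of the membrane part, had intensities of 3673 and 1738.5 in the mutant, against 3233 and 6677 in the wild type. Mutant array 2 was the lowest and wild-type array 2 the highest, and the arrays of each genotype were further apart than the difference of -0.86 (SE 0.42). The gene atpB, for the catalytic beta subunit, had intensities of 100376 and 97361 in the mutant, against 89552 and 101585 in the wild type. These 4 values lay close together, with a difference of 0.052 (SE 0.19).

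The genes atpA (alpha subunit), atpF and atpH (both of the membrane part) differed by -0.82, -0.76 and -0.48. Each had separate groups, as had 18.3% of all tested probe sets in the lower direction. The gene atpE, for the epsilon subunit, differed by -0.20. Of the 6 genes, 0 passed in limma (adjusted p of 0.675 or more). At an unadjusted p under 0.05 in limma 2 were lower, beside 3.22% of tested probe sets.

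The NDH complex moves electrons from ferredoxin back to plastoquinone around photosystem I, and all 10 of its genes had lower means in the mutant. Their median difference was -0.58, with -0.21 against wild-type array 1 and -0.91 against wild-type array 2. The gene ndhD, for a membrane subunit of the proton-pumping arm, had intensities of 22217 and 15775 in the mutant, against 42624.5 and 78162 in the wild type. Every mutant value of ndhD was below every wild-type value. The difference of ndhD was -1.62 (SE 0.30; adjusted p = 0.141, limma), with -1.18 against wild-type array 1 and -2.06 against wild-type array 2. Of the 10 genes 0 passed in limma. At an unadjusted p under 0.05 in limma 3 were lower, beside 3.22% of tested probe sets.

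The gene ndhI, for an iron-sulfur subunit of the peripheral arm, had intensities of 48770 and 46565.5 in the mutant, against 47896 and 72641 in the wild type, and ndhC had 39913 and 35828.5 in the mutant, against 27468 and 54195 in the wild type. The mutant arrays lay around wild-type array 1 for ndhI and above it for ndhC, and under wild-type array 2 for both. Their differences were -0.31 and -0.029. Among the other membrane subunit genes the differences ran from -0.86 for ndhE through -0.61 for ndhF and -0.58 for ndhG to -0.17 for ndhA. The peripheral-arm genes ndhK, ndhJ and ndhH differed by -0.80, -0.58 and -0.43.

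The gene rbcL, whose product fixes carbon dioxide, had intensities of 9916 and 12168 in the mutant, against 12621.5 and 20042 in the wild type. Both mutant arrays lay below wild-type array 1, mutant array 2 by little, and further below wild-type array 2. Its difference was -0.53 (SE 0.27; adjusted p = 0.704, limma), with -0.20 against wild-type array 1 and -0.86 against wild-type array 2.

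Over all 43 genes the median difference was -0.46, beside 0.00 over all tested probe sets, and 39 had lower means, beside 49.6% of all tested probe sets. Mutant array 1 lay below the wild-type mean for 31 genes (50.1% of tested probe sets) and mutant array 2 for 39 (46.1%). The size of the shift turned on which wild-type array was used, with a median of -0.13 against wild-type array 1 and -0.81 against wild-type array 2. Against wild-type array 1 the median was 0.039 for mutant array 1 and -0.18 for mutant array 2. Against wild-type array 2 it was -0.68 and -1.04. For mutant array 1 the direction of the median thus also turned on the wild-type array.

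Against wild-type array 1 the counts by direction were nearer to those of all probe sets than against wild-type array 2. The mutant mean was lower for 26 of 43 genes, beside 50.6%. Both mutant arrays lay below wild-type array 1 for 15 genes and above it for 12, where the shares of all tested probe sets were 32.1% and 32.9%. A mean at least 2-fold below this array was seen for psbA, ndhD, psaJ and psaC, 4 of 43 genes, beside 1.14%.

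Against wild-type array 2 nearly all genes were lower. The mutant mean was lower for 42 of 43 genes, where the share of tested probe sets was 49.6%. Both mutant arrays lay below wild-type array 2 for 40 genes and above it for 1, psbF, beside 32.4% and 35.1%. A mean at least 2-fold below this array was seen for 16 genes, beside 2.40%.

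Taking both wild-type arrays, the mutant mean was below each for 26 genes (34.5% of tested probe sets) and between them for 16 (31.4%). The groups did not overlap for 15 genes in the lower direction, beside 18.3% of all tested probe sets. These were 3 genes of photosystem I, 4 of photosystem II, 1 of cytochrome b6f, 3 of the ATP synthase, 3 of the NDH complex and rbcL. Groups were also separate in the lower direction for 8 of the 26 remaining named plastid genes and 9 of the 12 tested mitochondrial genes. Lower means were seen for 19 of those 26 and 11 of those 12. The lower direction was therefore not confined to the photosynthesis and NDH genes. Genes measured on the same arrays are not independent observations, and the counts describe these 4 arrays.

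**Figure D2:**
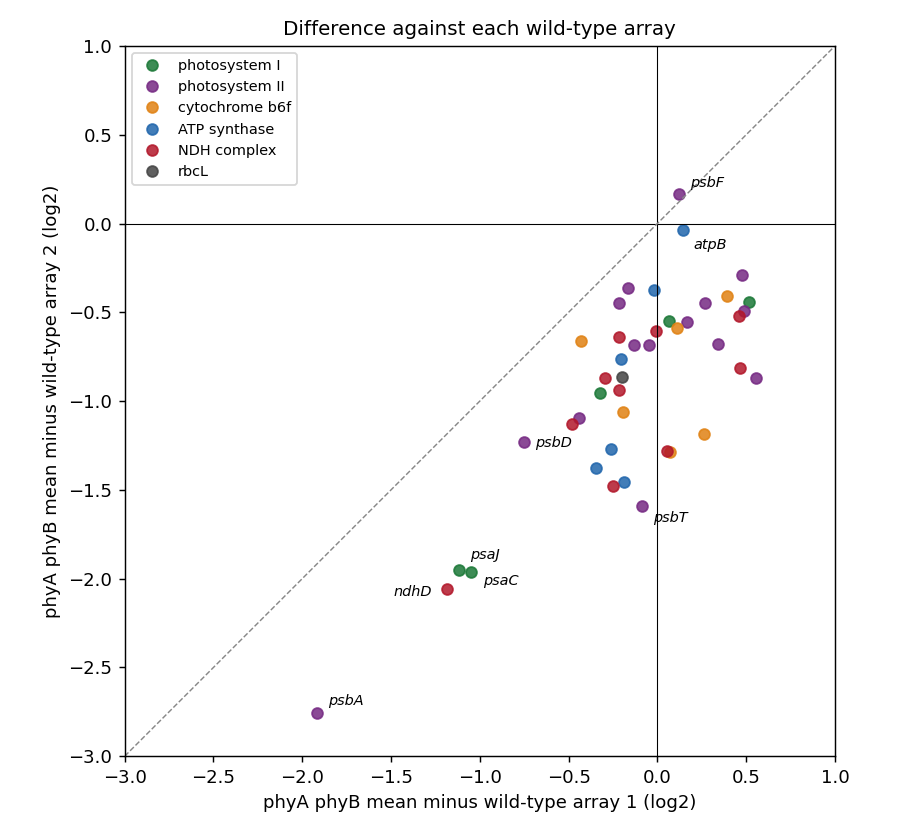
Each point is a gene, coloured by complex, with the phyA phyB mean minus wild-type array 1 on the x axis and minus wild-type array 2 on the y axis, both in log2. Points lie below the dashed line of equal differences because wild-type array 2 was higher, psbF excepted. The genes psbA, ndhD, psaJ and psaC lie beyond -1 on both axes, and the others spread around 0 on the x axis.

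Leaving out mutant arrays changed which genes passed. Without mutant array 1, psbA and ndhD passed (adjusted p = 0.00336 and 0.0282, limma), where 0.0513% of tested probe sets fell. Without mutant array 2, psbA, psbD, psaJ, ndhD and psaC passed (adjusted p = 0.00195, 0.0125, 0.0139, 0.0316 and 0.0466, limma), where 1.50% of tested probe sets fell. In such fits the lone array is assumed to vary like the other genotype. Without wild-type array 2, 0 of the 43 passed in limma (4 with an unadjusted p under 0.05), and without wild-type array 1 psbA did.

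The same genes were also set against the rest of the plastid genome, by subtracting on each array the median log2 value of the 26 plastid genes that encode no subunit listed above. These encode 15 ribosomal proteins, 4 subunits of the plastid RNA polymerase and 7 other proteins. They shared the wild-type difference: wild-type array 2 exceeded wild-type array 1 by a median of 0.81 over the 26. The medians subtracted, 13.55 for wild-type array 1 and 14.65 for wild-type array 2, were further apart than this. Centring therefore reversed the wild-type difference. Wild-type array 2 minus wild-type array 1 then had a median of -0.37 over the 43 genes and -0.28 over the 26. Their own median difference between mutant and wild type was -0.37, with 0.13 against wild-type array 1 and -0.69 against wild-type array 2. On this scale the median of the 43 genes was -0.08, and 24 were lower and 19 higher in the mutant. The groups did not overlap for 14 in the lower direction and 7 in the higher one, beside 0.681% and 19.5% of tested probe sets, shares that follow from centring nuclear probe sets on plastid genes.

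Relative to the other plastid genes, psbA stood at -0.99 and -0.99 in the mutant, against 1.08 and 0.83 in the wild type. The 2 mutant values nearly coincided, and the wild-type values came closer together than on the deposited scale. Closer mutant values were not general on this scale. The SD of the 2 mutant values went from 0.21 to 0.059 for psaC, but from 0.087 to 0.35 for psaJ. The averages of psbA were -0.99 ± 0.0019 in the mutant and 0.95 ± 0.18 in the wild type (SD, n = 2 each), a difference of -1.95. The differences on this scale were -1.23 for ndhD, -1.15 for psaJ and -1.12 for psaC. For each of these 4 genes the mutant mean stayed more than 2-fold below each of the wild-type arrays on this scale, and for 0 of the 26 other plastid genes. The share of all tested probe sets was 0.0659%. That share follows from centring nuclear probe sets on plastid genes and is no measure of how rare these 4 genes are. The 26 other plastid genes set the centre, and their count was 0 before centring too, so it is no separate check. Against wild-type array 2, psaJ (-1.01) and psaC (-1.03) only just passed the 2-fold mark on this scale.

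Centring shifts the difference of every gene by the same amount, 0.39 upwards, and so leaves their order and spacing as they were. On this scale psbF stood at 0.53 and psbZ at 0.48. Medians were 0.12 for photosystem II, -0.25 for photosystem I, -0.12 for cytochrome b6f, -0.24 for the ATP synthase and -0.19 for the NDH complex. The gene psaA stood at 0.42 and atpB at 0.44, while psbD stood at -0.60 with groups that overlapped. Nuclear probe sets take on the plastid shift when arrays are centred this way, so this scale describes plastid genes against each other only. In limma on this scale 0 of the 43 passed (1 at an unadjusted p under 0.05).

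**Figure D3:**
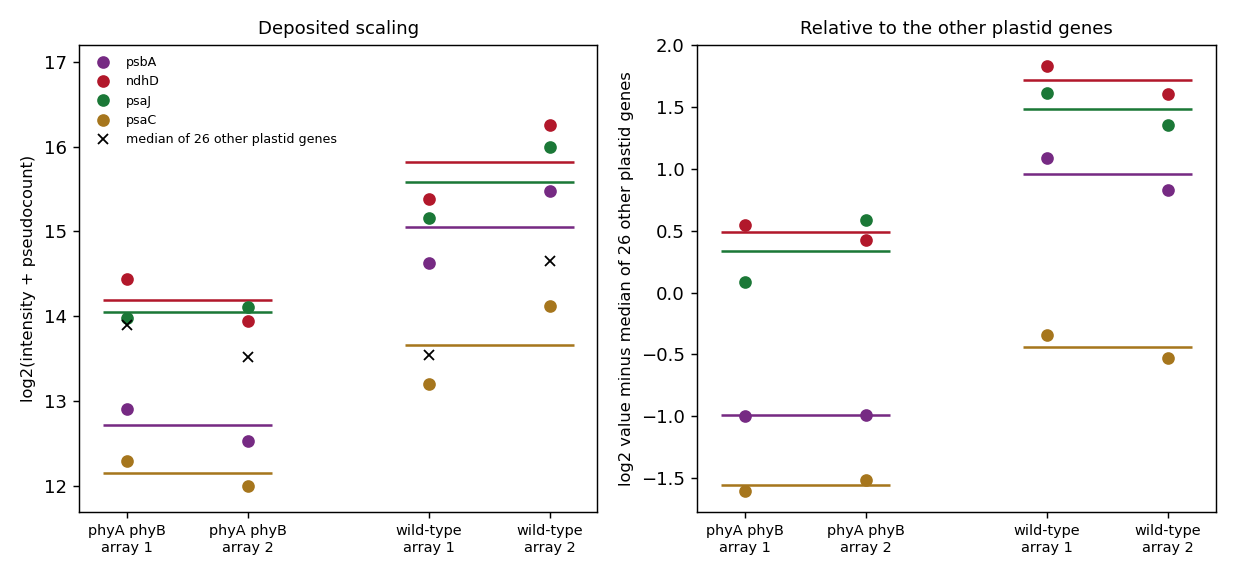
Values of psbA, ndhD, psaJ and psaC on phyA phyB arrays 1 and 2 and wild-type arrays 1 and 2, with lines at the genotype means (n = 2 each). The left panel has log2(intensity + 70.1) with the median of the 26 other plastid genes as crosses, and the right panel has the log2 value minus that median. On the right the 2 mutant values of psbA, -0.99 and -0.99, lie far under the wild-type values of 1.08 and 0.83.

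Position on the plastid genome was not used to choose the genes, and neighbours were compared within known polycistronic units, with gene order from the RefSeq assembly TAIR10.1. The lower differences of ndhD and psaC belong to neighbouring genes of the unit ndhH-ndhA-ndhI-ndhG-ndhE-psaC-ndhD. Within this unit the differences were not even. They were -1.62 for ndhD, -1.51 for psaC and -0.86 for ndhE at 1 end, and -0.58 for ndhG, -0.31 for ndhI, -0.17 for ndhA and -0.43 for ndhH towards the other. The span within the unit was 1.45 on the log2 scale.

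The psaJ gene shares a unit with the ribosomal protein genes rpl33 and rps18, which differed by -0.53 and 0.41. That unit had the widest span, 1.95. In psbD-psbC-psbZ the differences ran from -0.99 for psbD through -0.37 for psbC to 0.095 for psbZ. The psbB-psbT-psbH-petB-petD unit ran from -0.84 to -0.17.

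Some units were more even. The rps2-atpI-atpH-atpF-atpA unit ran from -0.86 to -0.48, the atpB-atpE unit from -0.20 to 0.052, and psbE-psbF-psbL-psbJ from -0.19 to 0.14. The gene psbA is transcribed on its own. Its neighbour matK, for a splicing factor, had the lowest difference of the 26 other plastid genes at -1.16 (SE 0.23; adjusted p = 0.179, limma), with intensities of 28549 and 29074 in the mutant, against 53079 and 78283 in the wild type. Both mutant values of matK were alike and below both wild-type values.

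**Figure D4:**
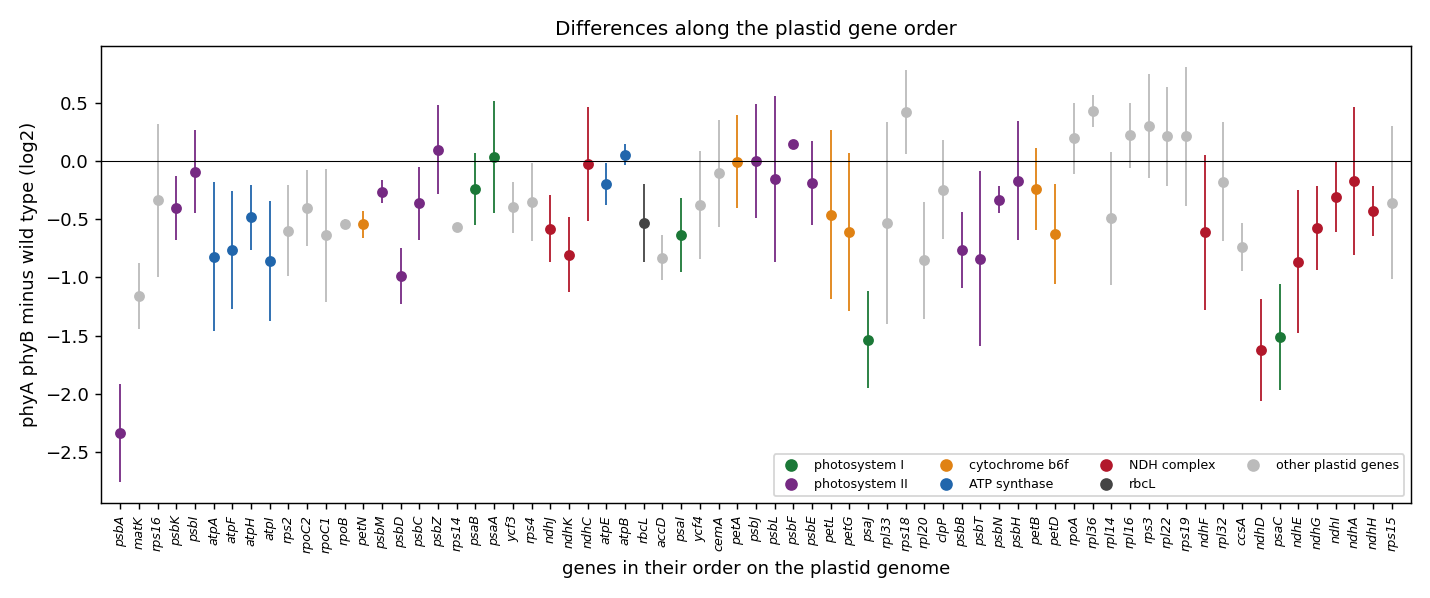
Differences of phyA phyB minus wild type (log2, y axis) for the 69 named plastid genes in their order on the genome (x axis, evenly spaced), coloured by complex, with grey for the 26 other plastid genes. Points are differences from the wild-type mean, and bars run between the differences from wild-type array 1 and from wild-type array 2. The lowest points are psbA at -2.33, ndhD at -1.62, psaJ at -1.53 and psaC at -1.51.

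Of the other plastid genes, 0 of 26 passed in limma. At an unadjusted p under 0.05 in limma 4 were lower and 0 higher, beside 3.22% and 4.02% of tested probe sets. The ribosomal protein genes ran from -0.85 for rpl20 to 0.43 for rpl36, and the 7 other genes from matK to -0.11 for cemA, a membrane protein gene. The polymerase subunit genes rpoB, rpoC1 and rpoC2 differed by -0.54, -0.64 and -0.41, and rpoA by 0.19.

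Nuclear genes for partners of these complexes, taken by symbol, numbered 15, of which 12 were tested and 0 passed in limma. At an unadjusted p under 0.05 in limma 1 was higher and 0 lower, beside 4.02% and 3.22% of tested probe sets. The 12 genes had a median difference of 0.18, but its sign depended on the mutant array. Against the wild-type mean it was 0.50 for mutant array 1 and -0.17 for mutant array 2. Between wild-type array 2 and wild-type array 1 their median difference was -0.01. They ran from -0.35 for ATPC2, for a gamma subunit of the ATP synthase, to 0.90 for CRR42, which acts in assembly of the NDH complex. Photosystem I genes PSAE-1 and PSAN differed by 0.43 and 0.054, and photosystem II genes PSBW and PSBY by 0.20 and 0.084. Mutant array 2 was the lower of the mutant arrays for each of these 12 genes.

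Of the mitochondrial genes, the 12 tested had a median difference of -0.66, and 0 passed in limma. At an unadjusted p under 0.05 in limma 3 were lower and 0 higher, beside 3.22% and 4.02% of tested probe sets. Over the 12 mitochondrial genes wild-type array 2 exceeded wild-type array 1 by a median of 0.75. The lowest was cox2, for a cytochrome c oxidase subunit, at -1.70, and the highest ccb206, a cytochrome c maturation gene, at 0.093. Genes for seed proteins, taken by symbol as markers of seed RNA, had higher means in the mutant for 6 of 6, and 2 passed. These were M17 (3.74; adjusted p = 0.0276, limma) and PAP85 (3.29; adjusted p = 0.0237, limma), and none of the 6 was at 0. Their summed intensity was 268952 and 100312 in the mutant, against 34469 and 31886 in the wild type. The summed intensity of the 43 plastid genes was 1119072 and 1113643 in the mutant, against 1146534 and 1798454 in the wild type. The part of seed RNA and of a shift of both organelle genomes in the plastid differences was not tested.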

How the data were processed

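The deposited values were 1 intensity per probe set on a linear scale for each of 4 arrays, per the file's values scaled by the authors before deposit (means trimmed by 2% at each end differed by 0.0946%). Software, scaling target and detection calls are not given in the sources used here. RNA came from a column kit and was labelled as the array maker instructs, per the labels; the primer is not stated. Plastid transcripts mostly lack long poly(A) tails, so the primer bears on how they are labelled, which was not tested.

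Log2(intensity + 70.1), the 10th percentile of all values being the pseudocount, was tested with limma 3.58.1 in R 4.3.3 (lmFit, eBayes with trend) on the brightest 60% of probe sets by mean log2 value, with Benjamini-Hochberg adjustment over all 13648 at 0.05. An exact permutation of 2 against 2 arrays cannot go below p = 0.333 two-sided. Total degrees of freedom were 9.2, and the number of arrays limits the precision. The procedure was run on simulated data, where 38.6% of 2-fold and 85.8% of 4-fold changes were recovered. The false share there was 7.32%, above the share of 0.05 that the threshold aims at. Noise in the simulation was independent between probe sets, whereas the plastid genes shared a difference between the wild-type arrays. These shares therefore do not carry over to the plastid genes. Most 2-fold changes were thus missed in the simulation, so a gene without a call may still differ.

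Of the probe sets, 13513 had 1 gene in the platform annotation, updated through RefSeq TAIR10.1. No coordinates are printed because the files name no build. Transcription units were listed by hand. The genes, lists and units were chosen with earlier results of these data known, and lists get counts and medians, with no set test. Described in full by rule were genes past the threshold, the brightest, lowest and highest of each complex, and rbcL; psaC, psbD and the others with single values were added after their values were seen. The label of wild-type array 1 carries no number, and it was taken as replicate 1. No arrays were identical. Figures used matplotlib 3.10.9. Alternatives covered normalization, pseudocount, filter, variance model, arrays left out, threshold, summary per gene and centring on other plastid genes.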

Additional observations from a re-analysis of the deposited data

How the results depend on the processing

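Over all tested probe sets 13 passed, and among the 43 plastid genes 1, psbA, which was lower. With the brightest 40%, robust eBayes, the pseudocount at 1 or at the 25th percentile, and arrays normalized by quantiles, medians or cyclic loess, psbA kept its call, and the medians of the 43 genes and of the 5 complexes moved by less than the spread between replicates, the widest being photosystem II, at -0.27 as reported, -0.16 with quantiles and -0.13 with cyclic loess. Without the filter the counts were 3 and 0 in limma (9 of the 43 lower at an unadjusted p under 0.05), with psbA at the same -2.33 but past the threshold no longer, where more probe sets were tested. Without the intensity trend they were 1 and 0 in limma (7 at an unadjusted p under 0.05), again with psbA at -2.33, and the cause was not tested. At an unadjusted p under 0.05, 11 of the 43 were lower, and at an adjusted p under 0.10 it was 1. With each array left out, the probe sets that passed ran from 6 to 422, the plastid genes that fell from 0 to 5, and psbA from -2.75 to -1.92. The median of photosystem II then ran from -0.68 to -0.049 and that of cytochrome b6f from -0.86 to 0.089. Centring on the other plastid genes gave counts of 37 and 0 in limma (1 at an unadjusted p under 0.05), with psbA at -1.95 and not past the threshold, and medians of -0.25 for photosystem I and 0.12 for photosystem II. By construction this puts the wild-type difference of plastid genes into all nuclear probe sets, whose wild-type arrays then differed by a median of -1.10, so that the count is no measure of the plastid genes. Among 14 other plastid genes described in full, 3 of 210 values gained a call and 207 kept their side of the threshold; the gains were psaJ without mutant array 2 and ndhD without either mutant array. Averaging the probe sets of a gene changes nothing, as each gene has 1, so its values among the 207 kept their side by construction. The 207 also include values from centring on the other plastid genes, a fit that cannot judge calls. No paired analysis was possible because the genotypes share fewer than 2 replicate numbers in the labels, where wild-type array 1 has none. No signal over background was given, so depth of the dim probe sets is unknown.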
